A study of Mus musculus with 57 samples.

Results

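Cholesterol synthesis is represented here by 7 genes, chosen by symbol as the rows of the deposited count table whose Ensembl IDs map to Hmgcs1, Idi1, Fdps, Sqle, Lss, Cyp51 and Insig1. All 7 were found among the 54307 gene rows, and all 7 passed the filter on low counts in every comparison made. Of the genes, 6 encode enzymes of the pathway and 1, Insig1, encodes a protein that senses sterols, and none is itself a receptor for lipoprotein uptake. Levels come from RNA-seq of 57 livers of male wild-type C57BL/6JJcl mice, aged 6 weeks and acclimatised for 1 week, that were fasted for 12 h before dosing and sampled 24 h after it. By gavage, 5 mice received thioacetamide (TAA), 7 received 4,4'-methylene dianiline (MDA), 6 received acetaminophen (APAP) and 4 received alpha-naphthyl isothiocyanate (ANIT). Carbon tetrachloride (CCl4, 7 mice) and galactosamine (GAL, 4) were injected intraperitoneally, and the lectin concanavalin A (ConA, 7) intravenously. Vehicle mice received 0.5% methylcellulose by gavage (Ctrl, 13), saline intraperitoneally (CIP, 2) or saline intravenously (CIV, 2). Corn oil was a further vehicle, per the labels, but no mice given corn oil alone were analysed here, so a compound given in it cannot be told apart from its vehicle. No dose by mass is given in the labels.

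Hepatocytes build cholesterol from acetyl-CoA through the mevalonate pathway. Hmgcs1 makes HMG-CoA at its entry, Idi1 isomerises isopentenyl diphosphate, and Fdps joins such units into farnesyl diphosphate, which also feeds other products. Sqle oxidises squalene, Lss closes the ring to lanosterol, and Cyp51 removes a methyl group from lanosterol. When sterols are scarce, SREBP transcription factors leave the endoplasmic reticulum and raise transcription of these genes, while Insig1 protein holds them back when sterols are plentiful and is itself a target of the same factors. Fasting is known to lower the pathway in liver and feeding to raise it.

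Because the members are known as targets of shared transcription factors, the bases before their start sites are shown first. RefSeq promoter entries (build GRCm38.p6, whereas the deposited counts were made on GRCm39) matched 5 of the 7 genes, namely Hmgcs1, Idi1, Lss, Cyp51 and Insig1. The 250 bases upstream of the start were searched on both strands for a sterol regulatory element (TCACNCCAC), for the NF-Y motif CCAAT and for the Sp1 motif GGGCGG. The sterol element letters were present in Hmgcs1 alone of the 5, starting 137 bases before the start, and in 1.05% of 32851 promoters of 27025 genes. CCAAT was present in 5 of 5, against 33.8% of all promoters, and GGGCGG in 5 of 5, against 32.7%. Both motifs together were in 5 of 5, against 11% of all promoters. Among 12 matched promoters of other synthesis enzymes, 11 held CCAAT, 10 held GGGCGG and 0 held the sterol element letters. These matches describe letters, and none of these data measured binding there. The sequences of Hmgcs1, which carries all the motifs, of Idi1, an enzyme that moved strongly in both directions, and of Insig1, the sensor, are printed 5′ to 3′ on the gene's strand, with matches on either strand in capitals. They lie at chr13:119690101-119690350 (+ strand), chr13:8885356-8885605 (+ strand) and chr5:28071162-28071411 (+ strand), and end at the base before the start site.
Hmgcs1 promoter: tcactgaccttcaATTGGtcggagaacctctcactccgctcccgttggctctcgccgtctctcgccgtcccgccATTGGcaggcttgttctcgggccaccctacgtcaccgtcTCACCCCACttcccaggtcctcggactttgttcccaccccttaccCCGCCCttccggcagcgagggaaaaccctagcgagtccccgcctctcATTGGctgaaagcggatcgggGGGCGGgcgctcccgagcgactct
Idi1 promoter: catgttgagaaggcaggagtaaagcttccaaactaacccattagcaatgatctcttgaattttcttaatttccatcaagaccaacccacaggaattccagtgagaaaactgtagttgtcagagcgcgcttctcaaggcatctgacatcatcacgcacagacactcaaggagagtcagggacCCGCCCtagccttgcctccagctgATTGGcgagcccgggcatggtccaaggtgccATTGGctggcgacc
Insig1 promoter: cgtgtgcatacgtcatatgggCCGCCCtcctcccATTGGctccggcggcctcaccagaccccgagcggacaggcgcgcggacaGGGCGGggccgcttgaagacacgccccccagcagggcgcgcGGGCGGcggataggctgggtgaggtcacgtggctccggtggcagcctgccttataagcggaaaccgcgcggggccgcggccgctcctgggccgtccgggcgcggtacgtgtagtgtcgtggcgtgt

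Total estimated counts per library ranged from 13826343 to 35075809, with a median of 21532116, and the smallest estimated count of any member in any liver was 7.82. Levels are given as CPM, counts scaled to equal library size with TMM factors over the 57 libraries. A gene is called changed where edgeR's quasi-likelihood test gave a Benjamini-Hochberg adjusted p under 0.05 over all genes tested. Each sample is titled as the liver of a numbered mouse, and p-values measure the spread between these samples. In whole liver, fewer cells of a type and less RNA per cell cannot be told apart. None of 6 hepatocyte markers was at 0 in every mouse of any compound group. The labels give no batch or date.

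Among the 13 gavage vehicle livers, Fdps was the most abundant of the 7 genes at 177 ± 84.3 CPM (SD, n = 13), followed by Insig1 at 130 ± 33.1 and Hmgcs1 at 44.0 ± 22.0. Cyp51 at 31.7 ± 15.6, Lss at 30.9 ± 17.8, Idi1 at 14.7 ± 9.25 and Sqle at 9.41 ± 6.64 CPM were lower. The values look corrected for transcript length, so this order is one of levels per length. Fdps and Insig1 differed by less than the SD of Fdps, as did Hmgcs1, Cyp51 and Lss among themselves and Idi1 and Sqle. The vehicle livers were not uniform. Mice numbered 15 to 18 had more Fdps (259 to 316 CPM) than any of the other 9 (at most 190), and likewise more Sqle (15.2 to 20.2 against at most 13.7) and Lss (47.2 to 66.0 against at most 30.3). Hmgcs1, Idi1, Cyp51 and Insig1 did not separate them, with Insig1 at 87.3 to 150 CPM in mice 15 to 18 and up to 178 in the others. Of the 13764 genes that passed the filter among these livers, 1.4% lay higher in each of the 4 mice than in all other 9 and 1.06% lay lower. This split was noticed in the data, and each gavage comparison was repeated without those 4 mice. No member passed the test between saline and methylcellulose, with 2 mice per saline route, so the routes are not shown to be alike. CIV was above Ctrl on average for each member, by a log2 change of 0.16 ± 0.48 (SE) for Cyp51 to 0.95 ± 0.53 for Idi1. CIP was below Ctrl for each member but Lss, down to -0.43 ± 0.55 for Idi1. For CIP against Ctrl and for CIV against Ctrl, edgeR called 0 of 7, 0 had an unadjusted p under 0.05, and DESeq2 called 0, where edgeR called 0.0131% and 0.0263% of all genes.

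**Figure D1:**
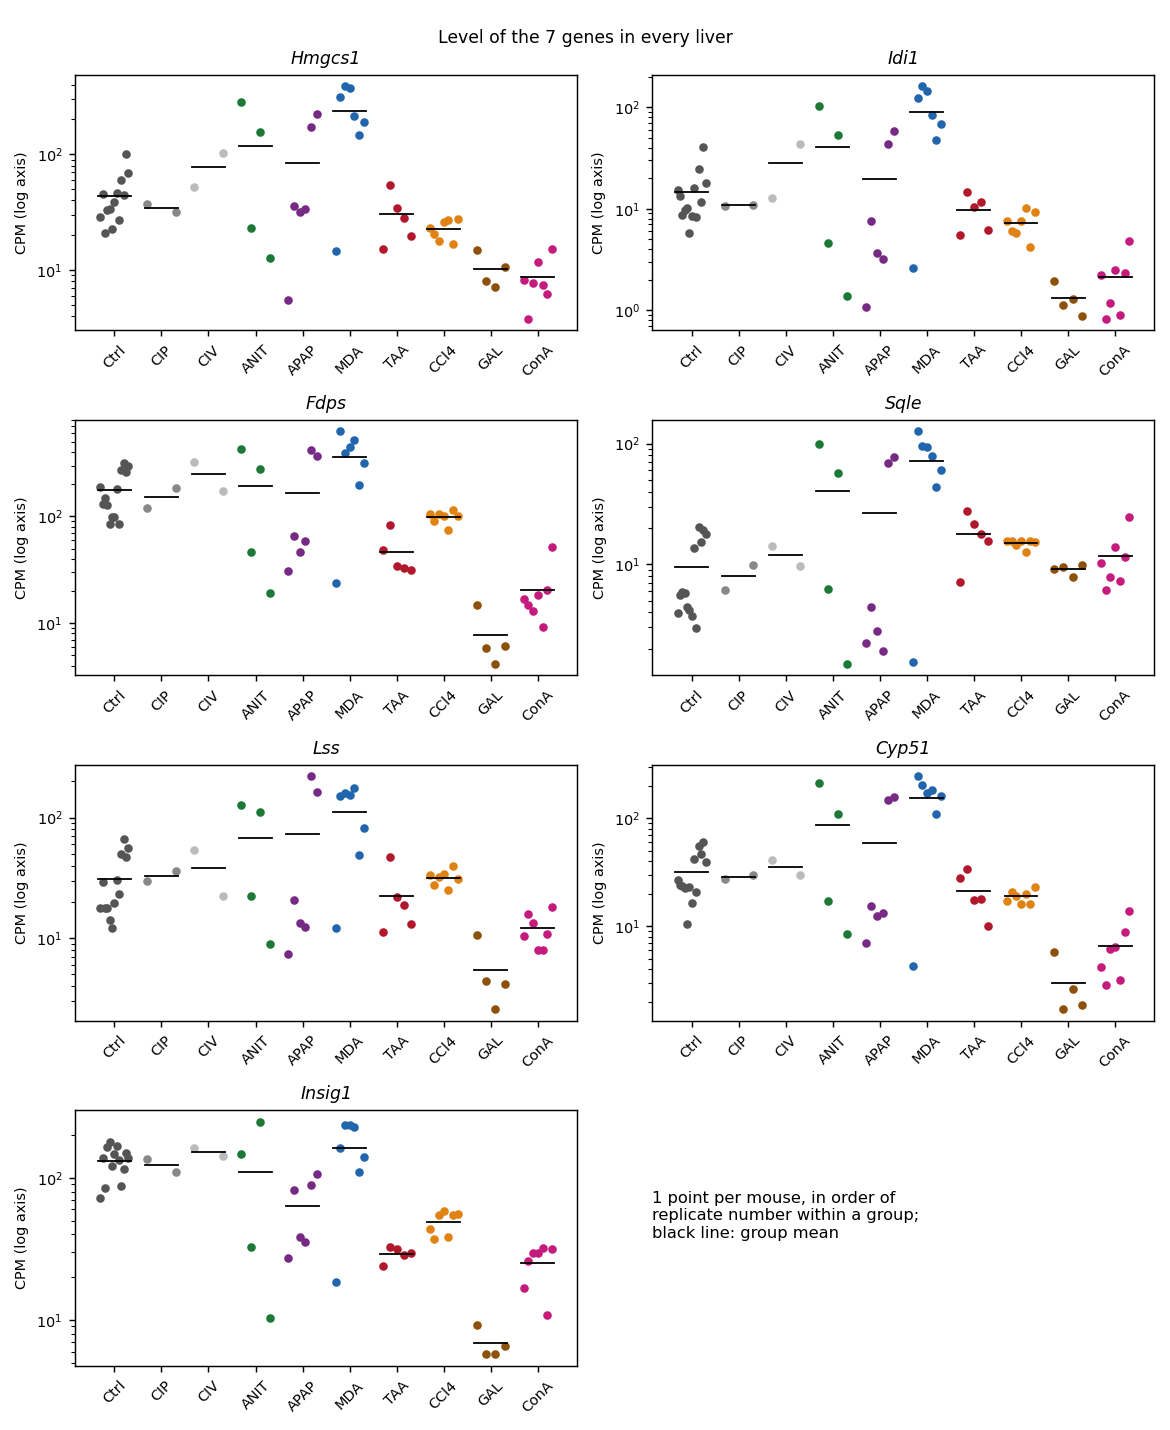
CPM (log axis) of each of the 7 genes in each of the 57 livers, by group, 1 point per mouse, with the group mean as a black line. MDA livers sit high except MDA 1, ANIT and APAP livers split into high and low mice, and GAL and ConA livers sit low for each gene shown but Sqle.

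MDA, an aromatic amine that injures bile duct cells and hepatocytes, went with the highest levels of the pathway. Of the 7 genes 6 rose against the gavage vehicle and 0 fell, where 33.8% of the 13522 genes tested were called and 17.4% were called higher. The first enzyme, Hmgcs1, ranged from 14.7 CPM through a median of 216 to 388 in the 7 MDA livers, against 21.1, 39.0 and 100 in the vehicle livers. Its log2 fold change was 2.42 ± 0.38 (SE; adjusted p = 5.45e-05, edgeR). Idi1 ranged from 2.60 through 83.8 to 162 CPM, against 5.78, 11.7 and 40.5, a log2 change of 2.64 ± 0.45 (adjusted p = 0.000124). For each of these genes 6 MDA livers lay above the vehicle range and 1, MDA 1, lay below it. Fdps rose less, with a log2 change of 1.04 ± 0.39 (adjusted p = 0.0424), from 177 ± 84.3 to 362 ± 205 CPM. Its adjusted p rose above 0.05 when MDA 2, 3, 4, 7 or 12 was left out, and was 0.0582 to 0.111 then, whereas without MDA 1 the change was 1.25 ± 0.29 (adjusted p = 0.00223). It also exceeded 0.05 with scaling by library totals (0.0885), without a filter (0.0648) and in a single fit of all 10 groups (0.0841). With vehicle mice numbered up to 12 alone as controls it was larger, at 1.5 ± 0.40 (adjusted p = 0.00915). Among the later enzymes, Sqle showed the largest change of the 7, with 1.55, 126, 95.6, 94.0, 79.4, 43.4 and 59.8 CPM in MDA mice 1, 2, 3, 4, 7, 8 and 12 against 2.94 to 20.2 in vehicle. The log2 change of Sqle was 2.92 ± 0.51 (adjusted p = 0.000144), a fold of 7.57. Lss rose by 1.87 ± 0.40 (adjusted p = 0.00101) and Cyp51 by 2.29 ± 0.42 (adjusted p = 0.000257). With vehicle mice up to 12 alone, the log2 change was 3.66 ± 0.54 for Sqle and 2.46 ± 0.39 for Lss. The sensor Insig1 was not called, at 161 ± 80.4 CPM (n = 7) against 130 ± 33.1, a log2 change of 0.31 ± 0.29 (adjusted p = 0.441).

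Mouse MDA 1 stood apart from the other 6. It had the lowest level of the group for 7 of 7 genes and lay below all 13 vehicle livers for 6. MDA 2, 3, 4, 7, 8 and 12 lay above all vehicle livers for 6, 7, 7, 7, 4 and 5 of the genes. Of all genes tested, 15.3% lay below all vehicle livers in MDA 1, and 15.7% to 21.1% lay above them in the other 6. Complete separation of MDA from vehicle was therefore seen for 0 of the 7, where 4.81% of genes tested separated. Without MDA 1, Insig1 was called higher too, at 0.51 ± 0.19 (adjusted p = 0.0396), and Sqle was at 3.14 ± 0.39. The summed level of 6 neutrophil markers was 6.57 CPM in MDA 1 and 15.8 to 120 in the others. Of these markers 3 were tested and 2 called higher in MDA, and none was at 0 in every MDA liver. Of 5 stellate cell markers 4 were called lower (summed level 31.1 to 105 CPM against 50.9 to 161 in vehicle), of 4 sinusoidal endothelial markers 2 (59.1 to 125 against 98.7 to 174), and of 4 B cell markers both of the 2 tested (0.201 to 1.47 against 0.863 to 4.27). Hepatocyte markers had 1 of 6 higher and 2 lower, and of 3 T and NK cell markers tested 1 was lower. The part of these cells in the result was not tested.

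ANIT, a bile duct toxicant, went with a wide spread between mice. Of the 7 genes 3 were called higher and 0 lower, against 28.2% of all genes called and 14% called higher. Hmgcs1 was at 282, 23.3, 157 and 12.6 CPM in ANIT mice 1 to 4, a log2 change of 1.44 ± 0.52 (adjusted p = 0.0449). Sqle was at 98.3, 6.23, 57.2 and 1.5 CPM, a change of 2.12 ± 0.66 (adjusted p = 0.0234), and Cyp51 at 215, 17.1, 109 and 8.40, a change of 1.47 ± 0.54 (adjusted p = 0.0485). Mice 1 and 3 were high and mice 2 and 4 low in each of these. ANIT 1 and ANIT 3 exceeded all vehicle livers for 6 genes each, whereas ANIT 4 was below all of them for 7 of 7 and ANIT 2 for 3. Of all genes tested, 15.5% and 21.4% lay above all vehicle livers in ANIT 1 and 3, and 15.7% and 16.6% lay below them in ANIT 4 and 2. Idi1 (1.48 ± 0.63, adjusted p = 0.0909) and Lss (1.15 ± 0.52, adjusted p = 0.108) did not pass, and Fdps was at 0.15 ± 0.55. Insig1 was at 147, 32.8, 248 and 10.3 CPM and was not called (-0.24 ± 0.48). The calls rest on ANIT 1 and ANIT 3: without either, 0 of the 7 were called, and without ANIT 4, 5 were. With the gavage vehicle mice numbered up to 12 alone as controls, 5 were called, Idi1 at 1.96 ± 0.68 and Lss at 1.77 ± 0.49 among them. Scaling by library totals in place of TMM, which moved the median of all genes by -0.22, left 0 calls, with Sqle at 1.81 (adjusted p = 0.0607). Without a filter Hmgcs1 (adjusted p = 0.0696) and Cyp51 (0.0758) did not pass, nor did Cyp51 in a single fit of all 10 groups (0.0629). Of 6 neutrophil markers 3 were tested and 1 was called higher with ANIT, with a summed level of 13.8 to 45.8 CPM against 0.666 to 49.6 in vehicle, and Ly6g was at 0 in every ANIT liver. Called lower were 2 of 5 cholangiocyte markers, beside 1 higher (19.7 to 34.9 against 23.1 to 103 CPM), 2 of 4 sinusoidal endothelial markers (114 to 135 against 98.7 to 174) and 2 of 5 stellate markers (62.0 to 168 against 50.9 to 161). So were 2 of the 4 T and NK cell markers tested (0.913 to 2.44 against 1.78 to 8.73 CPM) and 2 of the 3 B cell markers tested (0.122 to 2.09 against 0.863 to 4.27), with Ms4a1 at 0 in every ANIT liver. Hepatocyte markers had 1 of 6 higher and 1 lower, and the part of any of these cells in the result was not tested.

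APAP, which injures hepatocytes around the central vein through its reactive metabolite, went with lower Insig1, and no enzyme passed the test. That was 1 of 7 genes, called lower, against 31.8% of all genes called and 14.6% called lower. The count is near the share of all genes called lower, so it sets nothing apart about the 7. Insig1 was between 27.2 and 107 CPM in the 6 APAP livers, with a median of 60.3, against 72.3 to 178 with a median of 137 in vehicle, a log2 change of -1.03 ± 0.26 (adjusted p = 0.00561). Insig1 thus varied between the APAP livers and overlapped with vehicle, and APAP 1 lay below all vehicle livers for it as for each enzyme. The enzymes divided the mice more widely. Sqle was at 69.4 and 77.5 CPM in APAP 8 and 11 and between 1.92 and 4.43 in the other 4, and Lss at 220 and 163 against 7.39 to 20.6. The group difference was 1.51 ± 0.68 for Sqle (adjusted p = 0.0974) and 1.26 ± 0.57 for Lss (adjusted p = 0.0987). APAP 8 and 11 lay above all vehicle livers for 6 of the genes, every enzyme, and APAP 1, 2, 4 and 6 lay below all of them for 7, 1, 4 and 4. Of all genes tested, 20.5% and 19.5% lay above in APAP 8 and 11, and 33.4%, 15%, 14.7% and 11.9% lay below in APAP 1, 2, 4 and 6. Without APAP 1, Hmgcs1 (1.19 ± 0.42) and Lss (1.5 ± 0.55) were called higher, and without APAP 6, Sqle was, at an adjusted p of 0.0491. With vehicle mice up to number 12 alone, Sqle (2.25 ± 0.75) and Lss (1.86 ± 0.62) were called higher beside the lower Insig1. Scaling by library totals moved the median of all genes by 0.15 and put Insig1 at -0.82 (adjusted p = 0.0553). Neutrophil markers summed to 190 CPM in APAP 8 and 259 in APAP 11, against 11.1 to 35.3 in the other 4 and 0.666 to 49.6 in vehicle. Of the 6 markers, 3 were tested and 3 called higher in APAP, and none was at 0 in every APAP liver. Called higher as well were 3 of 5 monocyte markers (summed level 118 to 227 CPM against 36.0 to 144), 2 of 5 stellate markers (93.7 to 182 against 50.9 to 161) and 2 of 5 cholangiocyte markers (53.4 to 210 against 23.1 to 103). Hepatocyte markers had 2 of 6 higher and 1 lower. The part of these cells in the split or in the Insig1 call was not tested.

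**Figure D2:**
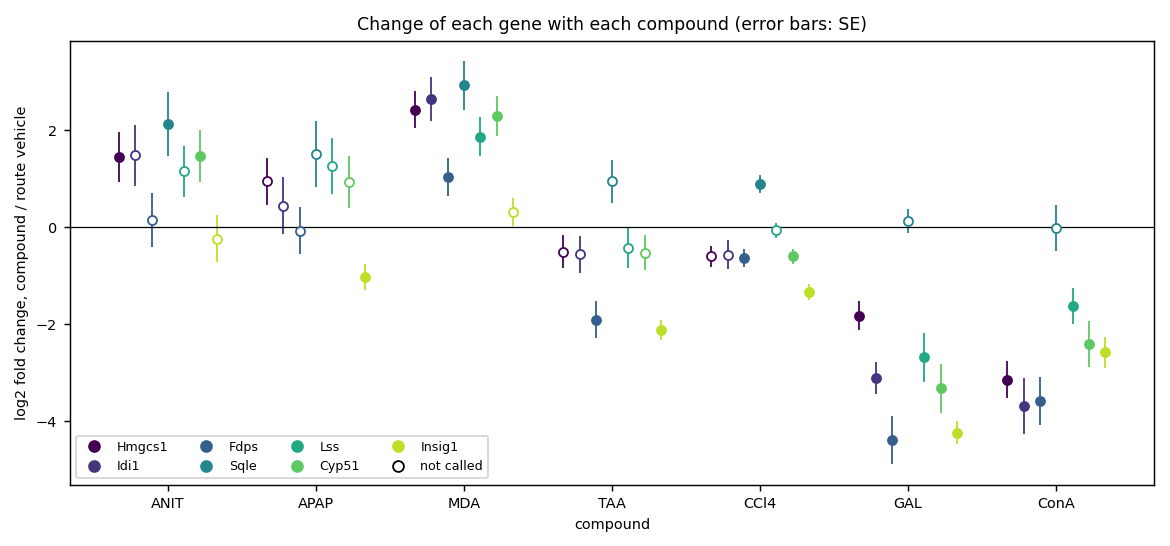
Log2 fold change of each gene with each compound against the vehicle of its route, with SE as error bars. Filled points passed an adjusted p of 0.05 and open points did not. MDA points are mostly above 0, GAL and ConA points lie far below 0, and Sqle alone stays near 0 in those 2 groups.

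GAL, an amino sugar that depletes uridine nucleotides in hepatocytes, went with falls across most of the pathway. Of the 7 genes 6 fell against the intraperitoneal vehicle and 0 rose, where 28.5% of 15509 genes were called and 15.7% were called lower. Fdps was at 14.6, 5.82, 4.16 and 6.07 CPM in the 4 GAL livers against 120 and 185 in CIP, a log2 change of -4.39 ± 0.50 (adjusted p = 0.00319). Its level was 0.0478 of that in vehicle. Insig1 was at 9.24, 5.76, 5.81 and 6.54 CPM against 135 and 110, a change of -4.23 ± 0.23 (adjusted p = 0.00176). Hmgcs1 was at 15.0, 8.02, 7.19 and 10.6 CPM against 37.4 and 31.4, a change of -1.83 ± 0.30 (adjusted p = 0.00841). GAL livers lay below both vehicle livers for each of these genes and for Idi1 (-3.11 ± 0.33), Lss (-2.68 ± 0.50) and Cyp51 (-3.32 ± 0.50). These 6 of 7 did not overlap with vehicle, as did 52.1% of genes in 1 direction or the other, with 23.9% lower. Sqle was the exception, at 9.09, 9.58, 7.84 and 9.87 CPM against 6.14 and 9.88, a change of 0.12 ± 0.25 (adjusted p = 0.736). When libraries were scaled by their totals in place of TMM, which moved the median of all genes by 0.76, Sqle was called higher at 0.91 (adjusted p = 0.0314), while Hmgcs1 was at -1.05 (adjusted p = 0.0564). With CIP 7 left out, Hmgcs1 and Lss lost their call (adjusted p = 0.0589 and 0.0576), and with CIP 8 left out Lss did (0.0737). Hmgcs1 also lost it in a single fit of all 10 groups (-1.82, adjusted p = 0.096). The 6 hepatocyte markers were all called lower, and their sum was 23269 to 30922 CPM in GAL against 45422 to 54407 in CIP. Neutrophil markers were higher for 3 of 4 tested (20.2 to 35.3 against 2.94 to 3.40) and monocyte markers for 3 of 5 (180 to 302 against 69.5 to 109), as were Kupffer cell markers for 2 of 5 (367 to 510 against 282 to 316). The part of these in the falls was not tested.

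ConA, which activates T cells and causes an immune hepatitis, also went with 6 of the 7 genes called lower and 0 higher. Of 14132 genes 34.2% were called and 17.3% were called lower. Idi1 ranged from 0.824 through a median of 2.22 to 4.81 CPM in the 7 ConA livers against 12.7 and 43.4 in CIV, a log2 change of -3.69 ± 0.57 (adjusted p = 0.00096). Fdps ranged from 9.28 through 16.8 to 51.3 CPM against 325 and 173, a change of -3.58 ± 0.49 (adjusted p = 0.000492). Hmgcs1 ranged from 3.81 through 7.81 to 15.3 CPM against 52.6 and 103, a change of -3.15 ± 0.38 (adjusted p = 0.000262). Every ConA liver lay below both CIV livers for these 3 genes, and likewise for Cyp51 (-2.41 ± 0.47), Lss (-1.63 ± 0.37) and Insig1 (-2.58 ± 0.32). Such separation was seen for 39.7% of all genes, 20.5% with ConA lower. Sqle was again not called, at 6.08 to 24.7 CPM against 14.1 and 9.70, a change of -0.02 ± 0.47 (adjusted p = 0.983). The CIV mice differed from each other, and without CIV 7 Lss was at -0.83 (adjusted p = 0.19) and Idi1 at -4.31, while without CIV 8 Idi1 was at -2.57 (adjusted p = 0.0264). In a single fit of all 10 groups Lss did not pass (-1.69, adjusted p = 0.0759). ConA 12 was the highest of its group for 6 of the 7 genes. The hepatocyte marker sum overlapped with vehicle (38410 to 79269 CPM against 42946 to 60659), with 1 of 6 markers higher and 1 lower. Kupffer cell markers were lower for 5 of 5, at 24.3 to 49.2 CPM in sum against 271 to 274, and sinusoidal endothelial markers for 3 of 4, at 20.6 to 43.1 against 113 to 119. Of 6 neutrophil markers, 4 were tested and 4 called higher, with sums of 124 to 286 CPM against 5.80 to 6.17. Of 5 cholangiocyte markers 2 were called higher (91.2 to 202 CPM against 26.5 to 60.2), and of 5 stellate markers 2 were called lower (132 to 302 against 81.6 to 192). Of 4 T and NK cell markers tested 0 were called (2.23 to 17.3 CPM against 3.76 to 4.68). The mitochondrial share of counts reached 39.3% in ConA livers against at most 25.4% in CIV. The part of these in the falls was not tested.

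TAA, a hepatotoxicant activated by hepatocyte enzymes, went with 2 of the 7 genes called lower and 0 higher, against 50.5% of all genes called and 24% called lower. The count is near the share of all genes called lower, so it sets nothing apart about the 7. Insig1 was at 23.9, 32.5, 31.6, 28.8 and 29.7 CPM in the 5 TAA livers, far below the 72.3 to 178 of vehicle, a log2 change of -2.12 ± 0.20 (adjusted p = 4.41e-08). Fdps was at 48.2, 84.1, 34.1, 32.7 and 31.3 CPM against 85.3 to 316, a change of -1.91 ± 0.38 (adjusted p = 0.000325). For these 2 genes the groups did not overlap, against 20.1% of all genes and 9.85% with TAA lower. Hmgcs1 (-0.51 ± 0.34), Idi1 (-0.56 ± 0.38), Lss (-0.43 ± 0.41) and Cyp51 (-0.53 ± 0.36) did not pass. With vehicle mice up to number 12 alone as controls these 4 were at -0.09, -0.09, 0.19 and -0.08, and Fdps at -1.43 ± 0.28 (adjusted p = 0.000638). Sqle was higher on average, at 7.15, 27.6, 21.5, 17.9 and 15.5 CPM, without passing (0.95 ± 0.44, adjusted p = 0.0834). It passed without TAA 1 (1.15, adjusted p = 0.0449), with a term for mice numbered 1 to 4 against the rest (1.13, adjusted p = 0.0377) and with those vehicle mice alone (1.72 ± 0.34, adjusted p = 0.000574). All 6 neutrophil markers were called higher in TAA, with sums of 156 to 799 CPM against 0.666 to 49.6. Sinusoidal endothelial markers were lower for 4 of 4, with sums of 42.3 to 85.1 against 98.7 to 174. B cell markers were higher for 3 of 3 tested (of 4), and of 6 hepatocyte markers 2 were higher and 3 lower. Called higher too were 2 of 5 monocyte markers (127 to 176 CPM against 36.0 to 144) and 2 of 5 cholangiocyte markers (59.0 to 103 against 23.1 to 103), and 2 of 5 T and NK cell markers were called lower (2.30 to 4.73 against 1.78 to 8.73). The part of these was not tested.

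CCl4, which hepatocyte enzymes turn into a radical, went with 3 of the 7 genes called lower and 1 called higher. Of 15365 genes 33.5% were called, 15.6% lower and 18% higher. Insig1 ranged from 37.1 through a median of 54.3 to 58.1 CPM in the 7 CCl4 livers against 135 and 110 in CIP, a log2 change of -1.33 ± 0.17 (adjusted p = 0.000332). Fdps ranged from 74.2 through 102 to 114 CPM against 120 and 185 (-0.63 ± 0.18, adjusted p = 0.024), and Cyp51 from 16.1 through 18.9 to 23.2 against 27.6 and 29.6 (-0.60 ± 0.16, adjusted p = 0.0174). Sqle moved the other way, from 6.14 and 9.88 CPM in CIP to 12.6 to 15.7, a change of 0.89 ± 0.19 (adjusted p = 0.00601). CCl4 livers lay above vehicle for Sqle and below it for 5 genes, the 3 lower ones with Hmgcs1 (-0.60 ± 0.21, adjusted p = 0.0515) and Idi1 (-0.57 ± 0.30). Of all genes 40.6% separated so, 22.1% higher and 18.5% lower, with 2 mice in the control group. Without CIP 8, Fdps (-0.25) and Cyp51 (-0.52) lost their call, and without CIP 7, Cyp51 did (-0.68, adjusted p = 0.0561). Scaling by library totals moved the median of all genes by 0.43 and left Insig1 lower and Sqle higher as the 2 calls, and a single fit of all 10 groups called 0 of the 7. Hmgcs1 was called lower with DESeq2 (-0.65, adjusted p = 0.0135), with RLE scaling, by median ratios to a mean library (0.0283), with a filter of mean CPM of at least 5 (0.0215) and without CCl4 10, 11 or 12 (0.0336 to 0.0453). Hepatocyte markers were called lower for 5 of 6, with sums of 17655 to 27090 CPM against 45422 to 54407. Sinusoidal endothelial markers were lower for 3 of 4 (59.1 to 87.2 against 102 to 129) and neutrophil markers higher for 3 of 5 tested (9.77 to 68.6 against 2.94 to 3.40). Monocyte markers were higher for 2 of 5 (48.3 to 221 against 69.5 to 109), stellate markers lower for 2 of 5 (66.3 to 116 against 93.3 to 99.2), and Kupffer cell markers lower for 2 and higher for 1 of 5 (114 to 359 against 282 to 316). The part of these was not tested.

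With all 17 vehicle livers as 1 control group, which mixes routes, the calls were the same in number for 6 of the compounds. ANIT had 3 of 7 higher (28% of all genes called, 13.5% higher) and MDA 6 higher (34.2%, 17.2% higher). APAP had 1 lower (33.4%, 15.3% lower), TAA 2 lower (49.7%, 24.5% lower), GAL 6 lower (52.5%, 27.5% lower) and ConA 6 lower (68%, 33.7% lower). The 6 falls with ConA were smaller than against CIV, with Hmgcs1 at -2.35 ± 0.33 and Idi1 at -2.81 ± 0.43. CCl4 differed, with 5 lower and 0 higher (53.4%, 27.2% lower). Hmgcs1 at -1.09 ± 0.27 (adjusted p = 0.00142) and Idi1 at -1.16 ± 0.34 (adjusted p = 0.00554) joined the lower genes there. Sqle in CCl4 was at 15.0 ± 1.15 CPM (n = 7) against 9.54 ± 5.93 (n = 17), a change of 0.60 ± 0.32 that did not pass (adjusted p = 0.121). Separation from all 17 vehicle livers held for 6 genes in GAL (13.1% of genes tested were lower so), 4 in ConA (14.4%), 2 in TAA (8.35%) and 1 in CCl4 (8.61%), all lower. That 1 gene was Insig1.

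Read by gene and against the route vehicles, Insig1 was called lower with 5 compounds (APAP, TAA, CCl4, GAL and ConA) and higher with 0. Fdps was called lower with 4 and higher with 1, Cyp51 lower with 3 and higher with 2, and Hmgcs1 lower with 2 and higher with 2. Idi1 and Lss were each lower with 2 and higher with 1. Sqle was called lower with 0 and higher with 3 (ANIT, MDA and CCl4). To describe how Sqle stood to the other enzymes within a liver, log2(CPM + 1) of each gene was centred on the gavage vehicle mean, and the mean of Hmgcs1, Idi1, Fdps, Lss and Cyp51 was subtracted from Sqle. This measure was chosen after the values were seen, and it was not tested. It lay between -0.69 and 0.48 in the 13 gavage vehicle livers and between -0.28 and 0.31 in the 4 saline livers. It was 2.29 to 3.34 in GAL, 2.31 to 2.85 in ConA, 0.98 to 2.26 in TAA and 1.16 to 1.6 in CCl4, so each liver of these 4 groups lay above each vehicle liver. MDA (0.15 to 1.16), ANIT (0.26 to 1.08) and APAP (-0.47 to 1.03) overlapped with vehicle. Insig1 less the mean of the 6 enzymes ran from -1.42 to 1.22 in gavage vehicle, and was -2.55 to -0.81 in MDA, -1.95 to -1.58 in GAL, -2.33 to -1.10 in TAA and -1.81 to 0.32 in ConA. It was -2.76 to 0.06 in APAP, -2.41 to -0.93 in ANIT and -1.39 to -0.78 in CCl4. The GAL livers all lay below the gavage vehicle range, whereas the other 6 compound groups overlapped with it.

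**Figure D3:**
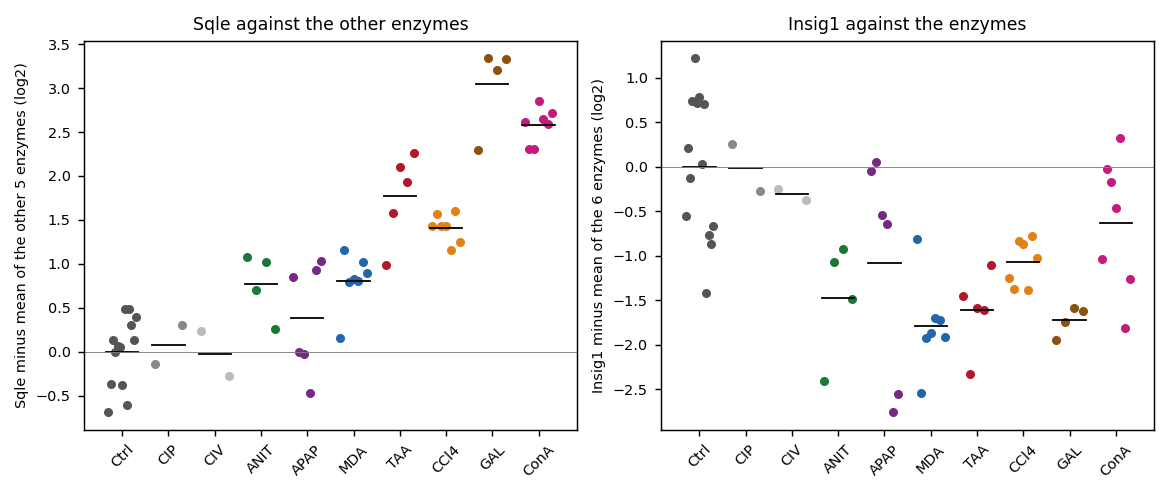
Left, centred log2(CPM + 1) of Sqle less the mean of the other 5 enzymes in each liver, and right, of Insig1 less the mean of the 6 enzymes, by group, with group means as black lines. On the left all GAL and ConA livers lie at 2.29 or above while vehicle livers stay at or below 0.48.

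The other synthesis enzymes, a list of 14 genes that all passed the filter, were described next. Of all genes, 28.2% were called with ANIT, 31.8% with APAP, 33.8% with MDA, 50.5% with TAA, 33.5% with CCl4, 28.5% with GAL and 34.2% with ConA, and the counts of this and the other lists stand against these shares. With MDA 7 were called higher and 3 lower, from Msmo1, a sterol methyl oxidase, at 2.57 ± 0.39 to Ebp, a sterol isomerase, at -0.72 ± 0.12, with a list median of 0.97 against 0.03 for all genes. With ANIT 5 were higher and 3 lower, from Msmo1 at 1.66 ± 0.49 to the sterol desaturase Sc5d at -1.42 ± 0.23. APAP had 1 higher, Hsd17b7 at 1.22 ± 0.42, and 4 lower, with Tm7sf2 lowest at -1.03 ± 0.18. With GAL, ConA, CCl4 and TAA most genes of this list were called lower. GAL had 10 lower and 0 higher (median -2.31 against 0.08 for all genes), with Nsdhl at -4.00 ± 0.37, and ConA 10 lower and 0 higher (median -1.33 against 0.03), with Sc5d at -3.41 ± 0.25. CCl4 had 10 lower and 0 higher (median -0.83 against 0.10), down to Tm7sf2 at -2.36 ± 0.19. TAA had 10 lower and 1 higher (median -1.03 against 0.03), so that 10 of these 14 enzymes were called lower where 2 of the 7 members were. The 1 higher in TAA was Hsd17b7 at 0.77 ± 0.21, and the lowest was Sc5d at -2.29 ± 0.18.

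The mice that stood out for the 7 members were also looked at over these 14 genes. ANIT 1 and 3 exceeded all gavage vehicle livers for 9 and 5 of the 14 and lay below all of them for 3 and 3, and ANIT 2 and 4 exceeded them for 1 and 0 and lay below for 8 and 10. APAP 8 and 11 exceeded them for 9 and 7 and lay below for 3 and 2, while APAP 1, 2, 4 and 6 lay below for 10, 10, 11 and 10. MDA 1 lay below for 10, and the other 6 MDA mice exceeded for 6 to 10 and lay below for 1 to 3. Over these 17 livers, 11.2% to 24.6% of all genes tested lay above all gavage vehicle livers and 11.9% to 33.4% lay below, both highest in APAP 1. These genes were not used to choose the members, but they come from the same libraries.

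**Figure D4:**
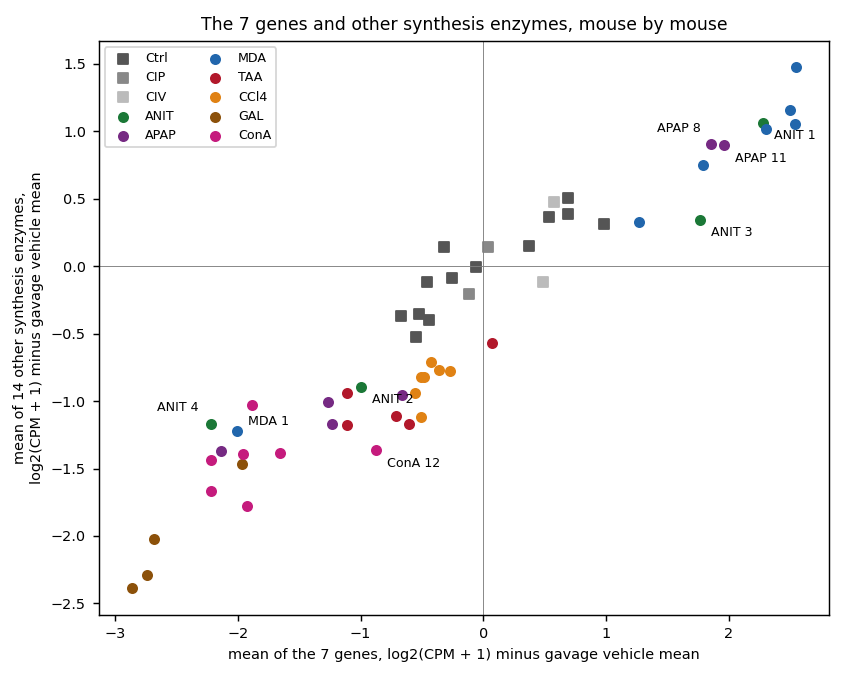
Mean centred log2(CPM + 1) of the 7 genes (x axis) and of 14 other synthesis enzymes (y axis) in each liver, with squares for vehicle and circles for compounds. ANIT 1 and 3, APAP 8 and 11 and 6 MDA livers lie at the upper right, and ANIT 4, APAP 1, MDA 1, GAL and ConA livers at the lower left.

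Of 6 genes of sterol sensing, Insig2, the paralogue of Insig1, was called higher with MDA (1.70 ± 0.23) and ANIT (1.02 ± 0.24), where Insig1 was not called. It was lower with GAL (-2.98 ± 0.30), CCl4 (-1.15 ± 0.20) and APAP (-0.82 ± 0.27). Counts of higher and lower in this list were 1 and 0 with ANIT, 2 and 0 with MDA, 0 and 3 with APAP, 0 and 3 with TAA, 1 and 3 with CCl4, 0 and 5 with GAL and 0 and 1 with ConA. For ANIT, MDA, TAA and ConA these counts were near or below the share of all genes called. That last gene was Stard4, a sterol carrier, at -1.58 ± 0.36, and the higher gene in CCl4 was the SREBP protease gene Mbtps2 at 1.11 ± 0.29. In a list of 7 genes of lipoprotein uptake and lysosomal handling, GAL had 3 lower and 0 higher and CCl4 4 lower and 1 higher. Lrp1, a lipoprotein remnant receptor, was at -1.61 in GAL and -1.16 in CCl4, and the higher gene in CCl4 was Npc1, a lysosomal cholesterol exporter, at 0.89. ANIT, APAP, MDA and ConA had 2, 1, 1 and 2 lower and 0 higher, and TAA 2 lower and 1 higher, each near or below the share of all genes called. The lowest with ConA was the lysosomal lipase Lipa at -2.05. Among 8 genes of efflux and esterification, ConA had 2 higher and 4 lower, with the exporter Abca1 at 2.23 and Abcg8, part of the biliary sterol exporter, at -2.10. Its partner Abcg5 was the lowest called gene with TAA (-2.36, 1 higher and 4 lower), CCl4 (-1.66, 0 and 3) and ANIT (-1.15, 2 and 3). Soat2, which esterifies cholesterol, was at -2.60 in GAL (0 and 2) and 0.55 in MDA (1 and 0), and APAP had 0 higher and 1 lower. For APAP, MDA, CCl4 and GAL the counts of this list were near or below the share of all genes called.

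Compounds were also set against each other, each relative to its own route vehicle, in 21 pairs whose p-values were adjusted over genes and not over pairs. At least 1 member differed in 14 pairs, and beside each count stands the share of all genes called in the same direction. MDA exceeded TAA in 7 of 7 genes (12.3% of all genes), ConA in 7 (15.4%) and GAL in 6 (11.5%), with Idi1 differing by 6.40 ± 1.01 between MDA and ConA on the log2 scale (adjusted p = 4.39e-06). ANIT exceeded GAL in 6 genes (11.4%), ConA in 6 (13%) and TAA in 4 (11.3%). APAP exceeded GAL in 6 (8.92%), ConA in 5 (11.9%) and TAA in 1, Fdps (5.01%). MDA exceeded CCl4 in 3 genes (5.31%). APAP was below MDA in 2 (6.7%), with log2 differences of -2.24 ± 0.69 for Idi1 and -1.37 ± 0.40 for Insig1. CCl4 exceeded GAL in 5 genes (15.7%), with Fdps at 3.72 ± 0.74. TAA exceeded GAL in 1, Insig1 at 2.06 ± 0.69 (6.96%), and ConA in 2, Hmgcs1 and Idi1 (5.94%). No member passed between GAL and ConA (16.8% of all genes called in either direction), where Insig1 differed by -1.59 ± 0.85 and Idi1 by 0.65 ± 1.43. Nor did any pass between ANIT and APAP (16.9%), MDA (0.24%) or CCl4 (9.54%), or between CCl4 and APAP (5.53%), TAA (7.34%) or ConA (16.8%). SEs of single genes reached 1.47 among the pairs with no member called, in GAL against ConA, so these comparisons do not show that the compounds act alike.

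The genes most like the members were ranked by Pearson r over 10 group means of log2(CPM + 1) against the mean of the 7, among 12372 genes with at least 1 CPM on average. The 10 highest were Pigx (0.981), Mospd2, A230050P20Rik, Cyp2r1, Msmo1 (0.960), Vps41, Nsdhl (0.957), Syne1, Necab1 and Haus7 (0.952). Of the 10, 2 were synthesis enzymes, Msmo1 and Nsdhl, and 9 of the 14 other enzymes had r above 0.8. Such values were common, since Lipa, at rank 460 of all genes, still had r = 0.813. Ggps1, also among the 14, went the other way (-0.63). The ranges of the 10 highest differed, from 0.48 for Vps41 to 4.17 for Nsdhl on the log2 scale. With 10 points that share controls and libraries, these values are a description.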

How the data were processed

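Livers of 57 mice, in 10 groups taken from the sample descriptions, were measured by stranded mRNA RNA-seq. The authors deposited expected counts, estimated values that are not whole numbers, for 54307 Ensembl IDs, of which 51482 matched a symbol in GENCODE M21. The submitters' processing notes name Salmon 1.6.0, R 4.1.3 and GRCm39, with no role or order, and strand use is not given in the sources used here. Over 4208 genes with 1 transcript, a gene's lowest non-zero value and its transcript length had a Spearman's rho of -0.944, a description since genes are not independent. The deposited estimated counts therefore look length-corrected, and no counting intervals were computed. No 2 libraries were identical.

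The estimated counts were rounded and tested with edgeR 4.0.16 in R 4.3.3 (TMM scaling, filterByExpr, quasi-likelihood test, two-sided, Benjamini-Hochberg over all genes, threshold 0.05), on the 2 groups compared. The SE is the log2 fold change divided by the square root of F. For pairs of compounds the contrast was the difference of the changes against each route vehicle. DESeq2 1.42.0, other scalings and filters, a replicate block, a covariate, a joint fit and leave-one-out fits were alternatives, and the test was tried on simulated data. The design fixed the use of all 7 members and, of each other gene list, the called genes with the largest and smallest change. Members, lists, markers and the division of replicate numbers were chosen with earlier results of these data known. Some genes of cholesterol handling are not reported here. Same-numbered mice were checked for shared deviations, and no comparison with at least 3 shared numbers had every correlation above 0.1, so the numbers were not taken as pairs.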

Additional observations from a re-analysis of the deposited data

Results flagged for a closer look

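Within the ConA group, replicate 12 lay apart from the other 6 livers for 3 genes by Dixon's test at 95%. Its level was 4.81 CPM for Idi1, 51.3 for Fdps and 24.7 for Sqle, each the highest of the group. Of 49 sets of values tested (7 genes in 7 groups of 4 to 7 mice), 3 were so marked, where chance marks about 1 in 20, and the 3 come from the same library.

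The change with 1 compound differed from that with another, by a contrast of both changes in edgeR, in 14 of 21 pairs for at least 1 of the 7 genes. The numbers of genes were 4 for ANIT minus TAA, 6 for ANIT minus GAL, 6 for ANIT minus ConA, 2 for APAP minus MDA, 1 for APAP minus TAA, 6 for APAP minus GAL and 5 for APAP minus ConA. They were 7 for MDA minus TAA, 3 for MDA minus CCl4, 6 for MDA minus GAL, 7 for MDA minus ConA, 1 for TAA minus GAL, 2 for TAA minus ConA and 5 for CCl4 minus GAL. The labels give no dose by mass, so whether doses were matched is not known, and compounds of different routes have different vehicles.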

How the results depend on the processing

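Of 1463 recomputed changes of single genes, 1336 stayed on their side of the threshold, 74 lost and 53 gained a call, and 0 called changes reversed. Of the 1336, 64 changed sign where neither value passed. Scaling by library totals changed the number of called genes in several comparisons. ANIT against its vehicle went from 3 to 0, APAP from 1 to 0 and CCl4 from 4 to 2, and with MDA Fdps lost its call (edgeR adjusted p = 0.0885). Against all vehicles ANIT went from 3 to 1, APAP from 1 to 3 and CCl4 from 5 to 2. Among pairs, ANIT minus TAA went from 4 to 1, APAP minus MDA from 2 to 0, APAP minus TAA from 1 to 0, MDA minus CCl4 from 3 to 0, TAA minus GAL from 1 to 0 and CCl4 minus ConA from 0 to 4. Without a filter, ANIT against its vehicle had 1, APAP minus TAA 0, MDA minus CCl4 1, TAA minus GAL 0 and TAA minus ConA 0, the last also 0 with RLE scaling. Fdps with MDA lost its call without a filter too (edgeR adjusted p = 0.0648). A filter of mean CPM of at least 5 gave 3 for APAP against all vehicles, and DESeq2 gave 2. The range of the replicate number as a covariate left 1 for ANIT against either control. Against the route vehicle, Hmgcs1 was then at 1.89 ± 0.71 and Cyp51 at 1.85 ± 0.75, larger changes with larger SEs. Without gavage vehicle mice above number 12, ANIT had 5 against its vehicle, and APAP 3 against either control. A single fit of all 10 groups left 0 for CCl4, and ended single calls for Cyp51 with ANIT, Fdps with MDA, Hmgcs1 with GAL and Lss with ConA. Other causes were not tested.

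Under a replicate block, although the samples share only a number, ANIT and APAP had 0 against either control and CCl4 had 1 against all vehicles. The block left 1 for ANIT minus TAA, 1 for APAP minus MDA, 0 for APAP minus TAA, 0 for TAA minus GAL, 0 for TAA minus ConA and 3 for CCl4 minus GAL. With the block, MDA had 5 against its route vehicle, Fdps having lost its call at 1.37 ± 0.58, and TAA had 3, with Sqle called higher. Insig1 with APAP, no longer called, was at -1.10 ± 0.31, so neither change was smaller than without the block. With ANIT the changes were smaller, at 0.94 ± 1.07 for Hmgcs1, 1.63 ± 1.26 for Sqle and 0.82 ± 0.87 for Cyp51. No paired analysis was possible for CCl4 and ConA against their route vehicles because 1 number is shared.

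Leaving out 1 mouse at a time gave 0 to 5 for ANIT and 1 to 3 for APAP, 5 to 7 for MDA, 2 to 3 for TAA, 2 to 5 for CCl4, 4 to 6 for GAL and 5 to 6 for ConA against route vehicles. Against all vehicles it gave 0 to 5 for ANIT, 1 to 4 for APAP, 5 to 7 for MDA and 2 to 3 for TAA. Among pairs the ranges were 0 to 1 for ANIT minus APAP, 0 to 6 for ANIT minus TAA, 5 to 6 for ANIT minus GAL, 4 to 6 for ANIT minus ConA, 2 to 3 for APAP minus MDA, 0 to 2 for APAP minus TAA, 4 to 6 for APAP minus GAL, 3 to 6 for APAP minus ConA, 6 to 7 for MDA minus TAA, 0 to 4 for MDA minus CCl4, 5 to 7 for MDA minus ConA, 0 to 1 for TAA minus GAL, 0 to 2 for TAA minus ConA, 4 to 5 for CCl4 minus GAL and 0 to 1 for CCl4 minus ConA. Where a route has 2 vehicle mice, leaving out 1 assumes that the other varies like the treated group. What depth limits was not measured apart from this, since counting intervals were not computed.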
